A study of Mus musculus with 6 samples.

Results

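Integrins are surface receptors made of an alpha and a beta chain, each the product of its own gene, that tie the cytoskeleton of a cell to the matrix around it. The beta1 chain (gene Itgb1) pairs with many alpha chains: with alpha1 (Itga1, the chain of VLA-1, also called CD49a) and alpha2 (Itga2, VLA-2, CD49b) it binds collagens, with alpha5 (Itga5) fibronectin and with alpha6 (Itga6) laminins. The alphav chain (Itgav) pairs with beta1 or with beta3 (Itgb3) and binds vitronectin, fibronectin and the latent form of TGF-beta. On CD8+ T cells alpha1 and alpha2 appear after activation, and alpha1 is known as a marker of T cells that stay in peripheral tissues. The 7 genes Itga1, Itga2, Itga5, Itga6, Itgav, Itgb1 and Itgb3 were taken by symbol from the 13675 genes of the table, and all 7 were found and tested.

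The values come from RNA sequencing of OT-I CD8+ T cells, which carry a transgenic receptor for an ovalbumin peptide. The KO-labelled cells (CK2αfl/fldLck-Cre, 3 libraries) carried floxed alleles of the gene of CK2α, a catalytic subunit of the kinase CK2, together with Cre driven by the distal Lck promoter, a promoter of late T cell development. The WT-labelled cells (CK2αfl/fl Control, 3 libraries) carried the floxed alleles alone. Cells of either kind were CD45.2, were put into separate CD45.1 B6 hosts that keep their own lymphocytes, and were sorted as CD45.2 CD8+ cells from the spleen after 7 days of infection with Listeria monocytogenes carrying OVA. The ages of the mice, and whether the libraries of a group came from separate animals, are not given. The p-values thus reflect the spread among these 6 libraries alone, and that spread may be technical.

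Recovered reads numbered 14746864 to 20140111 in the KO-labelled libraries and 18226879 to 22931296 in the WT-labelled libraries. The targeted gene went against its label: Csnk2a1 measured 2786 to 2875 normalized counts in the KO-labelled libraries and 1645 to 1847 in the WT-labelled libraries (log2 fold change 0.72, limma, adjusted p = 0.000865). A count over the whole gene does not check the deleted exons, so directions are given by label. All 10 CD8+ T cell markers examined were measured and none of them passed, with sums of 127321 to 136311 normalized counts in KO-labelled and 136409 to 146964 in WT-labelled libraries. Of these 10, 8 had a log2 fold change below 0 (median -0.14), and every KO-labelled sum was below every WT-labelled one. The 13 markers of B cells, all measured, summed to 2606, 7073 and 6789 normalized counts in KO-labelled libraries 1, 2 and 3 and to 1727 to 2462 in the WT-labelled libraries. By this sum KO-labelled libraries 2 and 3 stood apart. All 13 had a log2 fold change above 0 (median 1.47), and Cd22 alone passed, as higher. No gene of the deposited values averaged below 9.69 normalized counts, so a listed marker that was not measured has no value here. Cd22 measured 734 normalized counts in KO-labelled library 1, above the 302 to 328 of the WT-labelled libraries. In bulk libraries fewer cells of a type and less RNA per cell cannot be told apart.

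All 7 genes were lower on average in the KO-labelled libraries, and 4 of them passed the test: Itga2, Itga1, Itgb3 and Itgb1. The collagen-binding alpha chains fell most, Itga2 to 0.322 and Itga1 to 0.46 of the WT-labelled level, while the beta chains fell to 0.671 (Itgb3) and 0.747 (Itgb1). Itga6, Itga5 and Itgav did not pass. The test was limma on log2 of the normalized count plus 1, fitted over 13654 genes, with a call at a Benjamini-Hochberg adjusted p below 0.05. Over all tested genes 3.15% were called lower and 2.04% higher, 5.19% in either direction. The median log2 fold change of the 7 genes was -0.42, beside 0.01 for all tested genes.

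**Figure D1:**
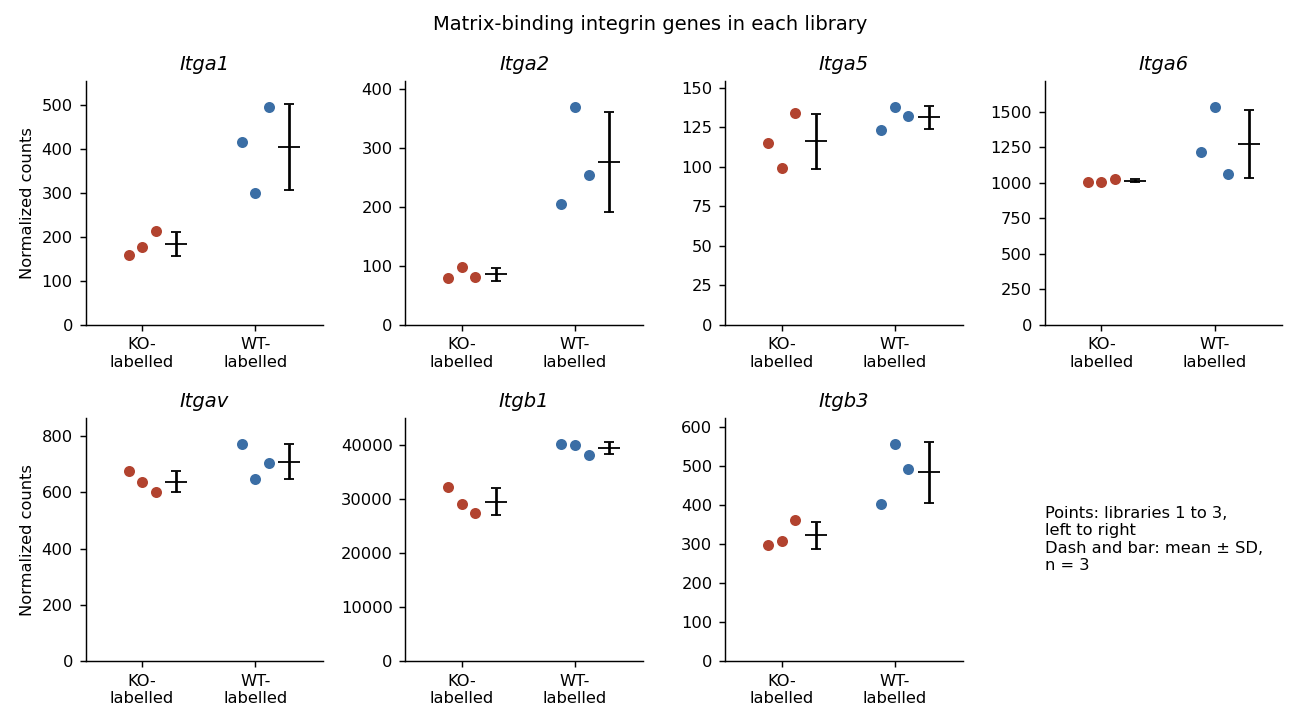
Normalized counts of each of the 7 integrin genes (vertical axes, linear from 0) in the 3 KO-labelled libraries (red, left) and the 3 WT-labelled libraries (blue, right), with the mean and SD beside the points. The groups are apart for Itga1, Itga2, Itgb1, Itgb3 and, narrowly, Itga6, and overlap for Itga5 and Itgav.

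Itga2 (ENSMUSG00000015533, GRCm38 chromosome 13, 114833081 to 114932100, minus strand) measured 78.8, 98.3 and 80.3 normalized counts in KO-labelled libraries 1, 2 and 3, against 204, 369 and 253 in WT-labelled libraries 1, 2 and 3. The KO-labelled values were close together and all were below the lowest WT-labelled value, whereas WT-labelled library 2 stood well above the other WT-labelled libraries. The means were 85.8 ± 10.9 and 275 ± 84.5 normalized counts in KO-labelled and WT-labelled libraries (SD, n = 3 each), a log2 fold change of -1.63 (SE 0.21, 95% interval -2.10 to -1.17, limma, adjusted p = 0.00261).

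Itga1 (ENSMUSG00000042284, chromosome 13, 114953096 to 115101964, minus strand) measured 158, 178 and 213 normalized counts in KO-labelled libraries 1, 2 and 3, against 417, 300.5 and 495 in WT-labelled libraries 1, 2 and 3. The groups did not overlap. Here WT-labelled library 2 was the lowest of its group, the reverse of its place for Itga2. The means were 183 ± 27.8 and 404 ± 98 normalized counts (SD, n = 3 KO-labelled and n = 3 WT-labelled), a log2 fold change of -1.12 (SE 0.18, 95% interval -1.52 to -0.71, limma, adjusted p = 0.00797). The ratio of Itga2 to Itga1 normalized counts was 0.497, 0.553 and 0.377 in KO-labelled libraries 1, 2 and 3 and 0.49, 1.23 and 0.511 in WT-labelled libraries 1, 2 and 3, so that WT-labelled library 2 stood far above the other 5 libraries.

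The genes of both collagen-binding chains lie next to each other on the same strand, with 20996 bases between them in GENCODE M21. The nearest measured gene on the far side of Itga2, Mocs2, a molybdenum cofactor synthesis gene 806 bases away, measured 476 ± 6.69 normalized counts in KO-labelled and 528 ± 59.8 in WT-labelled libraries and did not pass (log2 fold change -0.14, limma, adjusted p = 0.447). Pelo, which encodes a ribosome rescue factor and lies inside Itga1 on the same strand without sharing annotated exon bases, did not pass either (log2 fold change -0.17, limma, adjusted p = 0.319). On the far side of Itga1 the nearest measured gene, Parp8, lies 1752856 bases away and rose, averaging 808 ± 33.8 normalized counts in KO-labelled and 564 ± 109 in WT-labelled libraries (log2 fold change 0.54, limma, adjusted p = 0.0401). Another gene annotated inside Itga1, Gm49395, shares 685 of the 18599 exon bases of Itga1 and was not among the genes measured. Reads in those bases could have been counted for either gene.

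Both beta chain genes fell. Itgb1 (ENSMUSG00000025809, chromosome 8, 128685654 to 128733200, plus strand) measured 32154, 29008 and 27303 normalized counts in KO-labelled libraries 1, 2 and 3, against 40157, 39968 and 38042 in WT-labelled libraries 1, 2 and 3. The groups did not overlap, and the WT-labelled values lay close together. The means were 29488 ± 2461 and 39389 ± 1170.5 normalized counts (SD, n = 3 KO-labelled and n = 3 WT-labelled), a log2 fold change of -0.42 (SE 0.09, 95% interval -0.62 to -0.22, limma, adjusted p = 0.0248).

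Itgb3 (ENSMUSG00000020689, chromosome 11, 104608000 to 104670476, plus strand) measured 298, 308 and 362 normalized counts in KO-labelled libraries 1, 2 and 3, against 403, 557 and 492 in WT-labelled libraries 1, 2 and 3. The highest KO-labelled value was below the lowest WT-labelled value. The means were 323 ± 34.4 and 484 ± 77.6 normalized counts (SD, n = 3 KO-labelled and n = 3 WT-labelled), a log2 fold change of -0.58 (SE 0.13, 95% interval -0.87 to -0.28, limma, adjusted p = 0.035). Itgb3 is abundant in platelets, where it pairs with the alphaIIb chain of Itga2b. Of 13 platelet and megakaryocyte markers, Itga2b among them, 4 were measured, and their sums were 140 to 247 normalized counts in KO-labelled and 248 to 255 in WT-labelled libraries. Of 8 natural killer (NK) cell markers 7 were measured and none was called (median log2 fold change 0.09). Their sums were 18410 to 22272 normalized counts in KO-labelled and 21214 to 22180 in WT-labelled libraries. The part of platelet and NK cell transcripts in the differences of Itgb3 and Itga2 was not tested.

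The calls differed in how far they rested on single libraries. With 1 library left out at a time, Itga2 and Itga1 passed in 6 of 6 runs (largest adjusted p 0.0235 and 0.046, limma). Itgb1 passed in 2 of 6, those without KO-labelled library 1 (adjusted p = 0.028, limma) or WT-labelled library 2 (adjusted p = 0.0136, limma), and reached 0.091 without KO-labelled library 2, 0.118 without KO-labelled library 3, 0.0787 without WT-labelled library 1 and 0.0988 without WT-labelled library 3. Itgb3 passed without WT-labelled library 1 (adjusted p = 0.0221, limma) or 2 (adjusted p = 0.027, limma), and reached 0.116, 0.123 and 0.0736 without KO-labelled library 1, 2 or 3 and 0.133 without WT-labelled library 3. In a limma fit with no variance trend Itga2 alone passed (adjusted p = 0.0457), with 0.0732 for Itga1, 0.0896 for Itgb1 and 0.125 for Itgb3.

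The laminin-binding chain gene Itga6 (ENSMUSG00000027111, chromosome 2, 71745616 to 71858416, plus strand) measured 1006, 1006 and 1025 normalized counts in KO-labelled libraries 1, 2 and 3, against 1218, 1531 and 1061 in WT-labelled libraries 1, 2 and 3. The KO-labelled values were almost level and lay just below the lowest WT-labelled value, so the groups did not overlap, yet the gene did not pass (log2 fold change -0.31, SE 0.12, 95% interval -0.57 to -0.05, limma, adjusted p = 0.159). In all, 5 of the 7 genes had KO-labelled values wholly below the WT-labelled ones, a pattern found in 13.8% of all tested genes.

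Itgav (ENSMUSG00000027087, chromosome 2, 83724397 to 83806916, plus strand) measured 676, 635 and 601 normalized counts in KO-labelled libraries 1, 2 and 3, against 772, 649 and 705 in WT-labelled libraries 1, 2 and 3. The groups overlapped (log2 fold change -0.15, SE 0.09, 95% interval -0.35 to 0.05, limma, adjusted p = 0.387). An antisense transcript gene, Gm13684, shares 634 exon bases with Itgav, and whether the counting used strand is not given. Itga5 (ENSMUSG00000000555, chromosome 15, 103344286 to 103366763, minus strand), the fibronectin receptor chain, measured 115, 99.6 and 134 normalized counts in KO-labelled libraries 1, 2 and 3, against 124, 138 and 132 in WT-labelled libraries 1, 2 and 3. KO-labelled library 3 lay within the WT-labelled range (log2 fold change -0.18, SE 0.15, 95% interval -0.53 to 0.16, limma, adjusted p = 0.543). Both intervals include 0, and that of Itga5 also includes a fall of the size measured for Itgb1.

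Start site regions are shown for the called genes that had an entry in the RefSeq promoter table (GRCm38.p6), in which 5 of the 7 genes matched, so that the letters at the starts of genes that were lower in KO-labelled libraries can be seen side by side. Each runs 5′ to 3′ on the strand of the gene, from 250 bases before to 50 bases after the start. Capitals mark matches, on either strand, to the GC box letters GGGCGG, the Ets letters CCGGAA, the Runx letters TGTGGT, the AP-1 letters TGANTCA, the E-box letters CAGCTG or the TATA letters TATAAA.
Itga2, chr13:114932051-114932350, minus strand: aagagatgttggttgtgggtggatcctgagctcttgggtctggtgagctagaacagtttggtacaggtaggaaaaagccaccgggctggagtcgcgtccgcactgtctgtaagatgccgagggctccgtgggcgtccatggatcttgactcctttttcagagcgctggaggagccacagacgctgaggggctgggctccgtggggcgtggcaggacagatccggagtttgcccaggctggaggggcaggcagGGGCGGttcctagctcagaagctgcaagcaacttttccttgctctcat
Itga1, chr13:115101915-115102214, minus strand: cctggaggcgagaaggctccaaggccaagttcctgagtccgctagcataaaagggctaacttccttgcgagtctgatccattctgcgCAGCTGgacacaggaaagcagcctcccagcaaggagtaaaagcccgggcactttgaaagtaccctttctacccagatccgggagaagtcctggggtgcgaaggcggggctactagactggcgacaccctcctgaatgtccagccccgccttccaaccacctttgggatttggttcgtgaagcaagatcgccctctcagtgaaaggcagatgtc
Itgb1, chr8:128685404-128685703, plus strand: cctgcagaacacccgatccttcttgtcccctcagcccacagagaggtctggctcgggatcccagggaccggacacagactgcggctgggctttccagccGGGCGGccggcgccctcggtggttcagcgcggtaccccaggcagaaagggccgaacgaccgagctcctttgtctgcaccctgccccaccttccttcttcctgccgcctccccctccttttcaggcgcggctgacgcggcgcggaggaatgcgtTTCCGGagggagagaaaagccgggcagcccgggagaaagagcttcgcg

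Itga2 held a single GC box match, beginning at base 3 after the start, and Itga1 a single E-box match, beginning at position -163 from the start. Itgb1 held a GC box match beginning at position -151 and an Ets match, on the opposite strand, at base 3 after the start. None of the 3 held a match to the Runx, AP-1 or TATA letters, and no motif was found in all 3. Among 32851 regions of this length in the table, 35.7% held the GC box letters, 14.9% those of Ets, 16.8% of Runx, 7.81% of AP-1, 16.3% of the E-box and 13.6% of TATA. The G and C share was 59.3% for Itga2, 56.7% for Itga1 and 67.3% for Itgb1, beside a median of 52.7% over all regions. A match is a description of these letters only.

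Per kilobase of merged exon, Itgb1 was far above the other 6 genes. It averaged 7226 ± 603 normalized counts per kilobase in KO-labelled and 9652 ± 287 in WT-labelled libraries (SD, n = 3 each), which placed it at rank 90 of 13648 genes with a gene model. The next gene, Itga6, averaged 112 ± 1.19 in KO-labelled and 141 ± 26.5 in WT-labelled libraries. In the KO-labelled libraries the order from the top was Itgb1, Itga6, Itgav (59.3 ± 3.47), Itgb3 (54.7 ± 5.83), Itga5 (23.5 ± 3.49), Itga2 (12 ± 1.52) and Itga1 (9.85 ± 1.49), in normalized counts per kilobase. In the WT-labelled libraries it was Itgb1, Itga6, Itgb3 (82 ± 13.2), Itgav (65.9 ± 5.74), Itga2 (38.6 ± 11.8), Itga5 (26.6 ± 1.45) and Itga1 (21.7 ± 5.27).

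Neighbours whose ranges overlapped were Itgav with Itgb3 in both groups, Itga2 with Itga1 in KO-labelled libraries and Itga5 with Itga1 in WT-labelled libraries. Itga2 thus stood above Itga5 in every WT-labelled library and below it in every KO-labelled one. The place of Itga1 depends on the gene model, since its merged exons span 18599 bases and its longest coding sequence 3537. Per kilobase of coding length Itga1 (51.8 ± 7.86 in KO-labelled and 114 ± 27.7 in WT-labelled libraries) had a higher mean than Itga2 and Itga5, although in WT-labelled libraries its range overlapped that of Itga2.

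Each alpha chain was also set against Itgb1, the beta chain that all 5 can join, within the same library. These ratios are not corrected for gene length and are compared only between libraries. Itga2 amounted to 0.245%, 0.339% and 0.294% of the Itgb1 normalized counts in KO-labelled libraries 1, 2 and 3, against 0.509%, 0.923% and 0.665% in WT-labelled libraries 1, 2 and 3. The groups were apart, with a difference of -1.21 in the log2 ratio (exact two-sided permutation p = 0.1, the smallest that 3 against 3 can give, adjusted over the 5 chains 0.25). Itga2 transcripts were therefore lower relative to those of Itgb1 in 3 of 3 KO-labelled libraries.

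Itga1 amounted to 0.493%, 0.613% and 0.781% of Itgb1 in KO-labelled libraries 1, 2 and 3, against 1.04%, 0.752% and 1.30% in WT-labelled libraries 1, 2 and 3, and the groups overlapped (log2 ratio difference -0.70, exact permutation p = 0.2, adjusted 0.333). Itgav moved the other way relative to Itgb1. It amounted to 2.10%, 2.19% and 2.20% in KO-labelled libraries 1, 2 and 3, against 1.92%, 1.62% and 1.85% in WT-labelled libraries 1, 2 and 3 (log2 ratio difference 0.27, exact permutation p = 0.1, adjusted 0.25). Itga5 (log2 ratio difference 0.24, exact permutation p = 0.3) and Itga6 (0.11, exact permutation p = 0.5) overlapped between the groups. With 3 libraries in each group no ratio could reach 0.05.

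**Figure D2:**
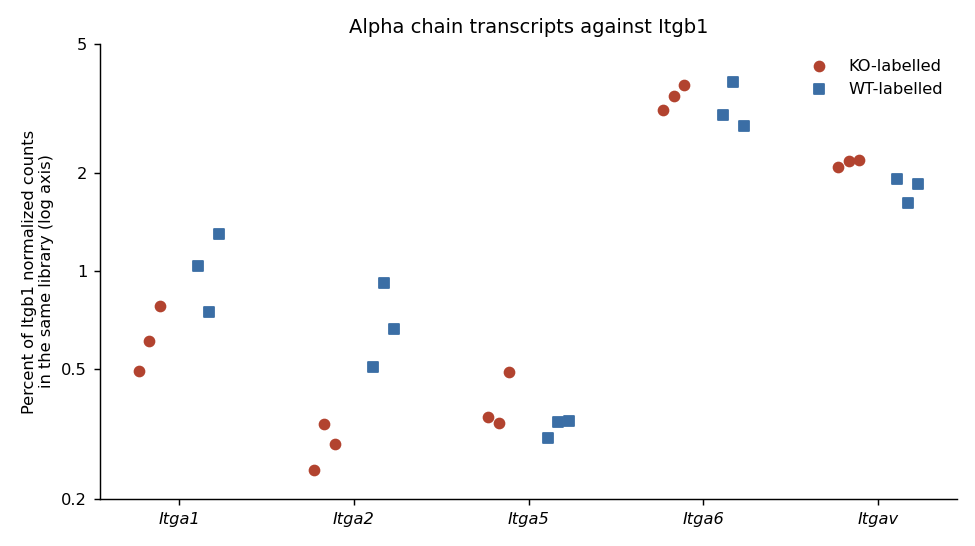
Normalized counts of each alpha chain gene as a percent of Itgb1 normalized counts in the same library (log axis), with KO-labelled libraries as red circles on the left and WT-labelled libraries as blue squares on the right. The groups are apart for Itga2, lower in KO-labelled libraries, and for Itgav, higher in them.

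B cell transcripts were raised most in KO-labelled libraries 2 and 3. KO-labelled library 1 had a summed B cell marker level of 2606 normalized counts beside up to 2462 in the WT-labelled libraries. Cd22 was above the WT-labelled range in KO-labelled library 1 too. In KO-labelled library 1 Itga2 stood at 28.6%, Itga1 at 39.2%, Itgb3 at 61.7% and Itgb1 at 81.6% of the WT-labelled mean. In KO-labelled libraries 2 and 3 they stood at 35.7% and 29.2% (Itga2), 44% and 52.8% (Itga1), 63.5% and 74.8% (Itgb3) and 73.6% and 69.3% (Itgb1). For Itga2, Itga1 and Itgb3 the fall against the WT-labelled mean was as large in library 1 as in the others. For Itgb1 it was smaller there. The part of the B cell transcripts in these values was not tested. With KO-labelled libraries 2 and 3 both left out, the log2 fold changes were -1.75 for Itga2, -1.32 for Itga1, -0.68 for Itgb3 and -0.29 for Itgb1. None of these passed (adjusted p = 0.17 to 0.366, limma), and no gene of 13654 did, with 1858 genes at an unadjusted p below 0.05. That run assumes that the lone KO-labelled library varies like the WT-labelled ones.

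**Figure D3:**
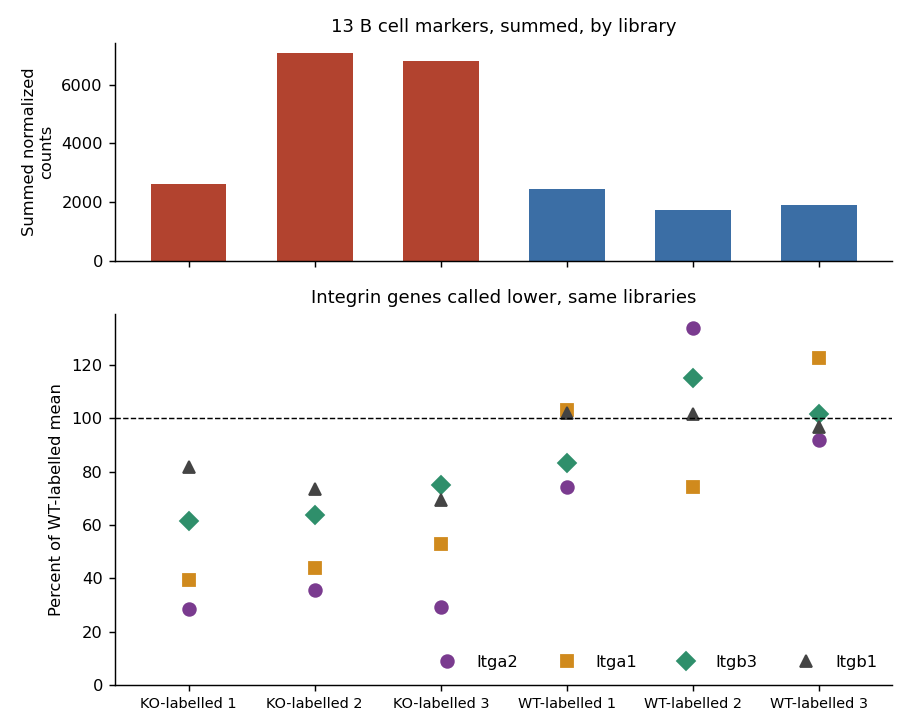
Summed normalized counts of 13 B cell markers (bars, upper panel) and the level of the 4 called integrin genes as a percent of the WT-labelled mean (symbols, lower panel; dashed line, 100%) in each library, KO-labelled on the left. The marker sum is high in KO-labelled libraries 2 and 3 and the integrin genes are low in all 3 KO-labelled libraries.

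The other integrin chains went in both directions. Of 20 listed, 16 were measured, 2 passed as higher and 2 as lower (25% called, beside 5.19% of all genes), with a median log2 fold change of -0.14. Itgae, the alphaE chain that pairs with beta7 and binds E-cadherin on epithelial cells, rose. It measured 238, 188 and 308.5 normalized counts in KO-labelled libraries 1, 2 and 3, against 130, 63.5 and 134 in WT-labelled libraries 1, 2 and 3 (log2 fold change 1.21, SE 0.28, limma, adjusted p = 0.0367). The groups did not overlap, but the call held in 2 of 6 runs that left out 1 library, those without WT-labelled library 1 (adjusted p = 0.0423) or 2 (adjusted p = 0.00904, limma). The call was also lost under quantile normalization (adjusted p = 0.0560, limma) and with no variance trend (adjusted p = 0.154, limma). Chains that join beta2, the leukocyte integrins, moved unlike each other. Itgad, the alphaD chain, measured 436, 647 and 481 normalized counts in KO-labelled libraries 1, 2 and 3, against 136, 137 and 139.95 in WT-labelled libraries 1, 2 and 3, with no overlap (log2 fold change 1.89, SE 0.14, limma, adjusted p = 0.000325). Itgam, the alpha chain of Mac-1, averaged 571 ± 58.2 normalized counts in KO-labelled and 1058 ± 97.4 in WT-labelled libraries (log2 fold change -0.89, limma, adjusted p = 0.00152), and Itgax, the CD11c chain, 7945 ± 472 and 11159 ± 729 (log2 fold change -0.49, limma, adjusted p = 0.00746). Both are also myeloid genes, and 9 of 12 monocyte and macrophage markers were measured, with sums of 858 to 1175 normalized counts in KO-labelled and 980 to 1269 in WT-labelled libraries. Of 10 neutrophil markers 5 were measured, all 5 with a log2 fold change above 0 (median 0.95) and none of them called, with sums of 232 to 338 normalized counts in KO-labelled and 95.1 to 244 in WT-labelled libraries. Of 8 dendritic cell markers 4 were measured, none of them called, with sums of 135 to 179 and 129 to 184 normalized counts in KO-labelled and WT-labelled libraries. The part of the cells of these 3 lists in the values of Itgam and Itgax was not tested.

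Itga4, the alpha chain of VLA-4, which pairs with beta1 or beta7 and binds VCAM-1 and fibronectin, measured 39710 ± 3671 normalized counts in KO-labelled and 49694 ± 1878 in WT-labelled libraries (SD, n = 3 each). It did not pass (log2 fold change -0.33, SE 0.10, limma, adjusted p = 0.0827). Its beta7 partner Itgb7 had a log2 fold change of 0.08 (95% interval -0.11 to 0.28). Itga3, a laminin receptor chain that pairs with beta1, averaged 152 ± 23.8 and 105 ± 13.4 normalized counts in KO-labelled and WT-labelled libraries and did not pass (log2 fold change 0.53, limma, adjusted p = 0.105). The other chains that did not pass had log2 fold changes between -1.01 (Itga2b) and 0.37 (Itga8).

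**Figure D4:**
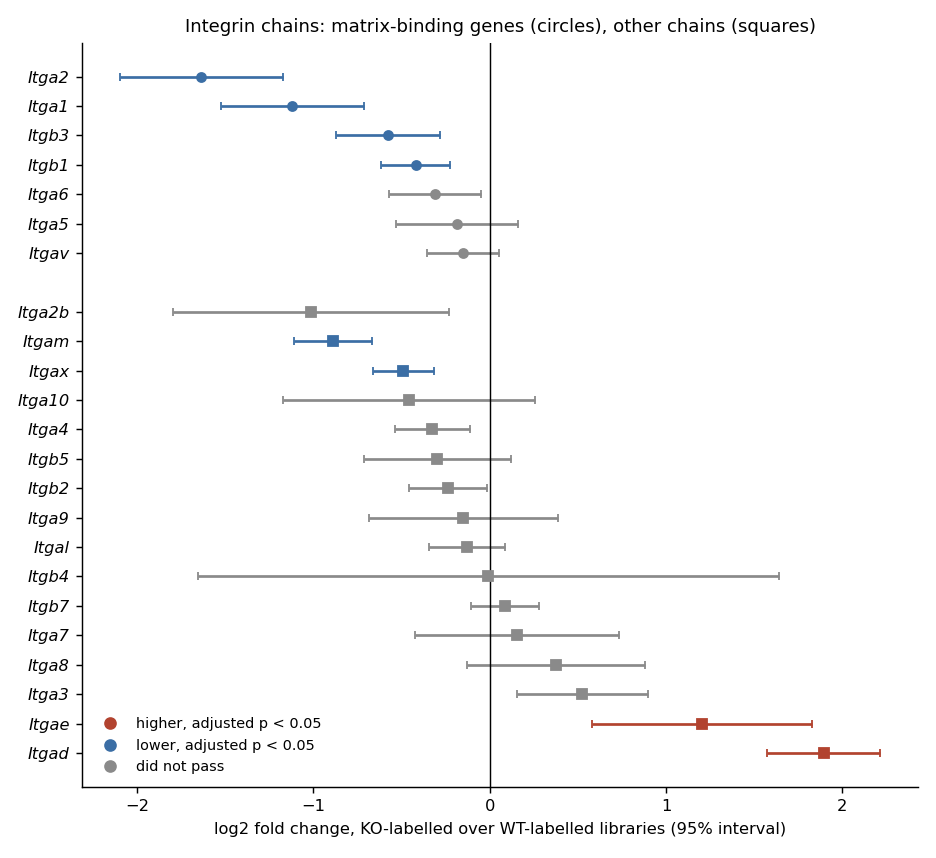
Log2 fold change of KO-labelled over WT-labelled libraries with its 95% interval for the 7 matrix-binding genes (circles, top) and 16 other integrin chains (squares), blue where called lower, red where called higher and grey where not called. The 7 matrix-binding genes all lie left of 0, from -1.63 to -0.15, while the other chains lie on both sides.

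Integrins are switched to their binding state from inside the cell, by talin and kindlin binding to the tail of the beta chain downstream of the small GTPase Rap1. Of 31 genes of this machinery 30 were measured, and 4 fell and none rose (13.3%, beside 5.19% of all genes). They were Rasgrp1, an exchange factor for Ras family GTPases, Rassf5, whose product RAPL is an effector of Rap1, Sipa1l1, a GTPase activating protein for Rap, and Arap2, a GTPase activating protein for Arf6. Rasgrp1 averaged 3654 ± 122 normalized counts in KO-labelled and 4655 ± 147 in WT-labelled libraries (SD, n = 3 each), a log2 fold change of -0.35 (SE 0.06, limma, adjusted p = 0.0141). Those of Arap2, Sipa1l1 and Rassf5 were -0.41, -0.34 and -0.31 (adjusted p = 0.0165, 0.0318 and 0.0275, limma).

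Every one of these 4 calls was lost in some run that left out 1 library: Arap2 passed in 4 of 6, Rasgrp1 in 3, Rassf5 in 2 and Sipa1l1 in 1. Sipa1l1 was also lost under quantile normalization (adjusted p = 0.0586, limma). The list count was 0 without KO-labelled library 2 or WT-labelled library 3, 1 without KO-labelled library 3, 2 without WT-labelled library 1 and 8 without WT-labelled library 2. The Rap1 gene Rap1b averaged 16686 ± 1751 and 21286 ± 1413 normalized counts in KO-labelled and WT-labelled libraries and did not pass (log2 fold change -0.35, limma, adjusted p = 0.0573). Talin itself, Tln1, had a log2 fold change of -0.05 (95% interval -0.26 to 0.16). The list median was -0.10.

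At the adhesion complex that forms behind bound integrins, 1 of 45 genes passed (2.22%, beside 5.19% of all genes). Zyx, which encodes zyxin, a LIM protein of mature adhesions and stress fibres, averaged 11760 ± 841 normalized counts in KO-labelled and 16296 ± 490 in WT-labelled libraries (SD, n = 3 each; log2 fold change -0.47, SE 0.08, limma, adjusted p = 0.00797). With 1 library left out it passed in 4 of 6 runs, and its adjusted p reached 0.0576 without KO-labelled library 3 and 0.0525 without WT-labelled library 3. The adaptor genes Nedd9 (log2 fold change -0.28, adjusted p = 0.0824, limma) and Git1 (-0.26, adjusted p = 0.081, limma) and the kinase genes Ptk2b (-0.21, adjusted p = 0.122, limma) and Fyn (-0.21, adjusted p = 0.127, limma) did not pass. The list median was -0.04.

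Of 29 measured partners and traffic genes of integrins, out of 31 listed, 2 rose and none fell (6.90% called, beside 5.19% of all genes). Both encode tetraspanins, membrane proteins that associate with beta1 integrins. Cd9 measured 752.5, 688 and 727 normalized counts in KO-labelled libraries 1, 2 and 3, against 431, 419.5 and 325 in WT-labelled libraries 1, 2 and 3 (log2 fold change 0.89, SE 0.12, limma, adjusted p = 0.00278). Cd81 measured 181, 222 and 222 normalized counts in KO-labelled libraries 1, 2 and 3, against 109, 85.3 and 89.7 in WT-labelled libraries 1, 2 and 3 (log2 fold change 1.13, SE 0.16, limma, adjusted p = 0.00387). In either gene all KO-labelled values, that of library 1 included, lay above the WT-labelled ones, and the calls held in 6 of 6 runs that left out 1 library. Cd81 is also part of the B cell coreceptor, and the part of the raised B cell transcripts in its values was not tested. Arf6, a GTPase of integrin recycling, had a log2 fold change of -0.32 and did not pass (limma, adjusted p = 0.0508), nor did Tspan32 (0.36, adjusted p = 0.0975, limma).

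Among matrix ligands and genes of latent TGF-beta, 37 of 43 were measured, 2 fell and none rose, which is 5.41% of those tested, near the 5.19% called over all genes. Both encode laminin chains, the ligands of alpha6 integrins. Lamc1, the gamma1 chain, measured 1308.5, 1625 and 1464 normalized counts in KO-labelled libraries 1, 2 and 3, against 2303, 2166 and 2420 in WT-labelled libraries 1, 2 and 3 (log2 fold change -0.65, SE 0.09, limma, adjusted p = 0.0038). Lamb3, the beta3 chain of laminin, averaged 399 ± 40.1 normalized counts in KO-labelled and 660 ± 107 in WT-labelled libraries (log2 fold change -0.72, SE 0.13, limma, adjusted p = 0.013). Neither gene overlapped between the groups. With 1 library left out, Lamc1 passed in 6 of 6 runs and Lamb3 in 3 of 6, with adjusted p up to 0.078 in the others.

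Collagen and fibronectin genes did not pass. Col5a1, the collagen gene with the smallest p, measured 143, 174 and 123 normalized counts in KO-labelled libraries 1, 2 and 3, against 203, 175 and 201 in WT-labelled libraries 1, 2 and 3. Its groups came close without overlapping (log2 fold change -0.41, SE 0.15, limma, adjusted p = 0.161). Col1a1 averaged 1009 ± 216 and 1207 ± 82.6 normalized counts in KO-labelled and WT-labelled libraries (log2 fold change -0.28, limma, adjusted p = 0.289), Fn1 had a log2 fold change of -0.08 (95% interval -0.35 to 0.20) and Tgfb1 of -0.16 (95% interval -0.33 to 0.02). The 8 stromal cell markers, all measured and Col1a1 among them, summed to 2530 to 3564 normalized counts in KO-labelled and 3369 to 3996 in WT-labelled libraries. Their part in the matrix gene values was not tested.

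**Figure D5:**
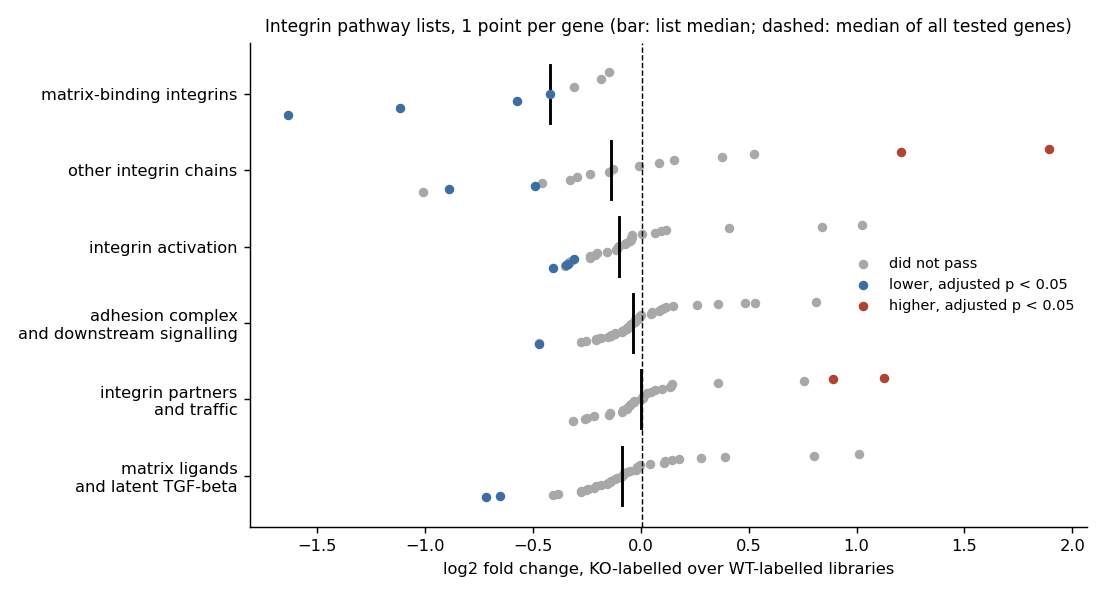
Log2 fold change of KO-labelled over WT-labelled libraries for every tested gene of the 7 integrin genes and of 5 pathway lists (rows), with called genes in blue (lower) and red (higher), the list median as a black bar and the median of all tested genes as a dashed line. The bar of the matrix-binding integrins lies at -0.42 and those of the other lists between -0.14 and -0.000184.

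For each called gene the 3 genes with the most similar profile over the 6 libraries were taken, by the root mean square difference of log2 values centred on the mean of each gene, among genes averaging 50 normalized counts or more. Since 6 libraries in 2 groups were compared, such genes share a group difference of like size. For Itga2 they were Tmprss13 (0.31), Serpinb1a (0.33) and Cd40lg (0.34), and for Itga1 Sept8 (0.08), Lztfl1 (0.14) and Nebl (0.14), the number being the difference on the log2 scale. For Itgb1 they were Dnah8 (0.03), Asrgl1 (0.04) and Ccng2 (0.04), and for Itgb3 Bcl2 (0.08), Csad (0.09) and Cdh23 (0.10). No integrin gene was among them. Of 10498 genes compared, Itga1 ranked 50, Itgb3 77 and Itgb1 325 by likeness to Itga2. In the other direction Itga2 ranked 1892 by likeness to Itga1, 9811 by likeness to Itgb3 and 10279 by likeness to Itgb1. Itga1 ranked 7819 by likeness to Itgb3 and 9669 by likeness to Itgb1. By likeness to Itga1, Itgb3 ranked 363 and Itgb1 719. Itgb1 ranked 426 by likeness to Itgb3, and Itgb3 3751 by likeness to Itgb1. The difference is not scaled for the size of the fold change, so these ranks do not separate size from profile.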

How the data were processed

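RNA sequencing of 3 KO-labelled and 3 WT-labelled samples was analysed. RNA came from a column kit and libraries from a commercial provider, per the labels' protocols. The submitters' processing notes name mm10. The sources used here name no aligner, counting program, annotation or strand setting. The deposited values, called normalized counts, are a signal that the authors appear to have made by dividing gene counts by 1 factor per sample: dividing each column by its smallest step left whole numbers (100% within 0.01, against 1.43% to 1.76% before), so reads were recovered. Every pair of libraries within a group differed beyond sampling noise (smallest chi-square 5.32 per degree of freedom).

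Of 13675 Ensembl IDs, 13648 matched a symbol in GENCODE M21 (GRCm38, also called mm10). Genes averaging 10 or more normalized counts were tested with limma 3.58.1 in R 4.3.3 (two-sided, with a variance trend) after taking log2 of the value plus 1, a scale that understates the change of low genes. Alternatives used pseudocounts of 0.5 and 5, no filter or one at 50, TMM, quantile normalization, no trend, array weights, a replicate block, edgeR 4.0.16 (645 genes called) and DESeq2 1.42.0 (1023) on recovered reads, and left-out libraries. On simulated counts with these means and depths (13675 genes) limma called 90% of genes changed 2-fold and 68.2% of those changed 1.5-fold. The changed genes were drawn only from those averaging 50 or more normalized counts. The integrin genes, lists and alternatives were chosen with earlier results of these data known. Named genes were the 7, Csnk2a1, every measured integrin chain, called or lowest-p list members and the 3 genes most like each called gene. Others, such as Tln1, Fn1, Col1a1, Fyn and the neighbours Mocs2, Pelo and Parp8, fall outside that rule and were chosen after their values were seen.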

Additional observations from a re-analysis of the deposited data

How the results depend on the processing

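The 7 integrin genes kept a negative log2 fold change under all 18 alternatives. The same 4 passed with either pseudocount, either filter, TMM factors, quantile normalization, array weights, edgeR and DESeq2. Without a filter 13675 genes were tested instead of 13654, so that run could hardly differ from the main one. With the replicate block 2 passed, Itga2 and Itga1, while Itgb1 (adjusted p = 0.0934, limma) and Itgb3 (0.0821, limma) did not. Whether the replicate number pairs libraries is not given. Same-numbered libraries deviated against each other (correlations -0.544, -0.270 and -0.235). Pairs of different number ranged from -0.235 to 0.388, so these correlations cannot settle whether libraries were paired. Under the replicate block 197 genes were called in all, and 0, 0 and 1 of the activation, adhesion complex and ligand lists. Without a variance trend 141 genes were called, 1 of the 7, 2 of the other chains, and 0 of the activation, adhesion complex and ligand lists. With array weights 2676 genes were called, and 8 of the other chains, 12 of the activation, 7 of the adhesion complex, 7 of the partner and 4 of the ligand list. DESeq2 called 3 of the adhesion complex and 4 of the partner list. Without KO-labelled libraries 2 and 3 the count was 0 for all genes and for each list (1858 genes at an unadjusted p below 0.05). With 1 library left out, the calls ranged from 200 (without KO-labelled library 3) to 2022 (without WT-labelled library 2) over all genes, 2 to 4 for the 7, 3 to 6 for the other chains, 0 to 8 for activation, 0 to 2 for the adhesion complex, 2 to 4 for partners and 1 to 2 for ligands. The calls over all genes rose from 708 without WT-labelled library 2 alone and fell in the other runs. Chi-square per degree of freedom was 19.07 and 18.48 for WT-labelled pairs that held library 2. It was 5.32 for WT-labelled libraries 1 and 3, and 6.14 to 10.41 for KO-labelled pairs. The cause of these shifts, which also come with fewer libraries, was not tested. None of the 7 genes and none of the 13 called list genes changed sign under these alternatives, and the other named genes were not examined for this. The median over all genes, near 0, was 0.00606 and became -0.00509 under quantile normalization, where Itgae and Sipa1l1 also lost their calls, leaving 3 of the other chains and 3 of the activation list. The SE in the main fit was 0.21 for Itga2, 0.18 for Itga1 and 0.15 for Itga5, beside 0.09 for Itgb1, so their intervals were wider than that of Itgb1.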
